A study of Mus musculus with 4 samples.

Results

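The genes described here make or bind actin, and comprise the beta-thymosins Tmsb4x and Tmsb10, the cytoplasmic actins Actb and Actg1, profilin 1 (Pfn1), cofilin 1 (Cfl1), coronin 1A (Coro1a) and the Arp2/3 complex subunits Arpc1b, Arpc2 and Arpc3. These 10 genes were chosen by name, with their high read counts in these pools already known, from 23366 gene symbols in a table of read counts, so their levels and shares of reads are given as a description. RNA was sequenced from medullary thymic epithelial cells (mTECs) of wild-type C57BL/6 mice aged 6 to 8 weeks, with no treatment, in 2 pools of cells from females and 2 from males. Each pool held cells of 10 mice, and no pool can be traced to single animals. The cells had been sorted as living (negative for propidium iodide), negative for the blood cell protein CD45, positive for MHC class II and low for Ly51, a protein of cortical thymic epithelium. The study asked how gene expression in mTECs differs between males and females.

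Actin monomers assemble into filaments that give a cell its shape and let it move. Beta-thymosins hold monomers in reserve, profilin hands them to growing filament ends, cofilin cuts and disassembles old filaments, the Arp2/3 complex starts branches on existing filaments, and coronins act on those branches. In the thymus, mTECs are epithelial cells that show self proteins to developing T cells, while Coro1a is best known as an actin regulator of blood cells.

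Reads assigned to genes numbered 3508921 and 1976272 in female pools 1 and 2, and 7103627 and 3344471 in male pools 1 and 2. Male pool 2 stood apart, with a TMM normalization factor of 0.78 against 1.03 to 1.18 in the other pools. Its counts gave the largest chi-square of any pair with those of male pool 1, at 99.6 per degree of freedom, against 11 for the lowest pair. This chi-square also grows with the read depth of both pools, so it does not rank the pairs by distance. The sorted population was checked against marker genes. The summed level of 9 thymic epithelial markers was 375.9 to 650.2 normalized CPM (counts per 1000000 reads of the TMM-scaled library). Spint2 gave the largest part of it, at 226 to 348 CPM. The mTEC genes Aire, Cd80 and Tnfrsf11a were at 19.3 to 31.7, 28.2 to 38.9 and 14.0 to 27.7 CPM. The mTEC chemokine gene Ccl21a had 0 counts in every pool. Reads with several alignments were set aside by the counting, and Ccl21a was not searched for copies, so this 0 need not mean that its RNA was absent. The list of B cell markers summed to 37590 to 52200 CPM, of which Cd74 made up most, at 34200 to 48000 CPM. Cd74 encodes the MHC class II invariant chain, and the cells were sorted as positive for MHC class II, so this sum is not a measure of B cells. Cd79a of this list, with a transcript of 1457 bases against 1926 for Aire, was at 1460 to 2430 CPM. Cd79b was lower, at 430 to 644 CPM, while Pax5 had 1 to 20 counts per pool and was not tested. Among the 5 blood cell markers, 3, Cd52, Coro1a and Laptm5, averaged over 1000 CPM. Thymocyte markers summed to 811.1 CPM in male pool 1 and to 280.6 to 335.2 CPM elsewhere, dendritic cell and macrophage markers to 1417 to 4224 CPM, fibroblast markers to 10.06 to 71.23 CPM and endothelial markers to 16.94 to 28.67 CPM. In such bulk samples, fewer cells of a type and less RNA per cell cannot be told apart, and how much of each actin gene's RNA came from which cell type was not tested.

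Together the 10 genes took 3.91% of the reads on genes in female pool 1 (95% Wilson interval 3.89% to 3.94%) and 4.0% in female pool 2. The male pools gave 3.18% (pool 1) and 6.31% (pool 2, 6.29% to 6.34%). These intervals cover counting error only. The mean over the 4 pools was 4.35% ± 1.36 (SD, n = 4), and most of the spread lay in a single gene. Tmsb4x alone took 1.57% and 1.73% of reads in the female pools, 1.24% in male pool 1 and 4.34% in male pool 2. Without it the remaining 9 genes took 2.34% and 2.27% in the female pools, against 1.95% and 1.98% in the male pools. This separation was not seen after TMM scaling, when the same 9 genes summed to 22320, 22230, 16510 and 25460 CPM in female pools 1 and 2 and male pools 1 and 2.

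**Figure D1:**
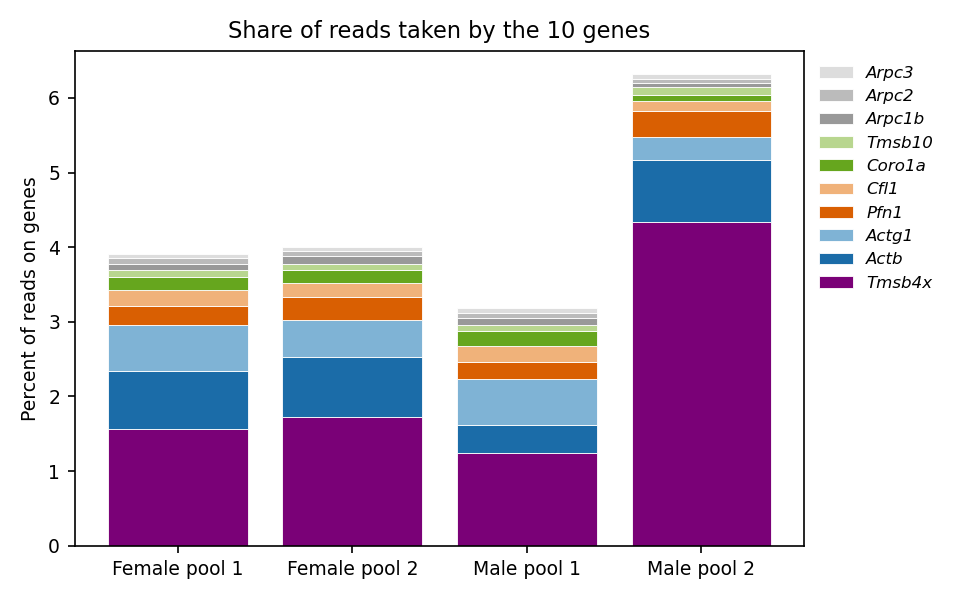
Stacked bars give the percent of all reads on genes (y axis) taken by each of the 10 genes in each of the 4 pools (x axis). The bar of male pool 2 reaches 6.31%, of which Tmsb4x takes 4.34%, while the other bars reach 3.18% to 4.0%.

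Ranked by read count, which also grows with transcript length, Tmsb4x was the 4th gene in both female pools and in male pool 1, and the 1st in male pool 2. Actb ranked between 8 and 16 and Actg1 between 10 and 29, and the lowest rank of any of the 10 genes was 275, for Arpc2 in male pool 2. Per kilobase of transcript, the mean levels were 32000 CPM per kb for Tmsb4x, 3770 for Actb, 3450 for Pfn1, 2570 for Actg1, 1630 for Cfl1, 1610 for Tmsb10, 924 for Coro1a, 663 for Arpc3, 470 for Arpc2 and 268 for Arpc1b. On this scale Tmsb4x, at 13670 to 72700 CPM per kb, did not overlap with any other of the 10 genes in any pool. Neighbours further down did overlap, with Actb at 1641 to 5510, Pfn1 at 2245 to 5225 and Actg1 at 2107 to 2972 CPM per kb, so the order of these genes is not resolved by the spread over pools. Cfl1, at 1497 to 1786 CPM per kb, likewise overlapped with Tmsb10, at 1161 to 2417, and Coro1a, at 618.1 to 1055, with Arpc3, at 581.0 to 869.9. Arpc2, at 457.1 to 495.3, and Arpc1b, at 225.1 to 323.2, overlapped with no other of the 10 genes. Lengths were taken from a single transcript per gene, of 3105 bases for Arpc1b. Whether another transcript would change its place was not tested.

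The levels of each gene in CPM, scaled by TMM, follow by role. Tmsb4x, the main store of actin monomers in many cells, was at 15020 and 16890 CPM in female pools 1 and 2 and at 10500 and 55840 CPM in male pools 1 and 2. Male pool 2 was 3.5 times the female mean and male pool 1 was 0.658 times that mean, so the male values lay on both sides of the female ones. Tmsb10, its close relative, was at 789.7 and 851.6 CPM in the female pools and at 662.0 and 1378 CPM in the male pools, the same order of pools over a smaller range. The count ratio of Tmsb4x to Tmsb10 was 19.0 and 19.8 in the female pools, 15.9 in male pool 1 and 40.5 in male pool 2. Male pool 2 thus stood further from the rest for Tmsb4x than for Tmsb10, in counts from which normalization cancels.

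**Figure D2:**
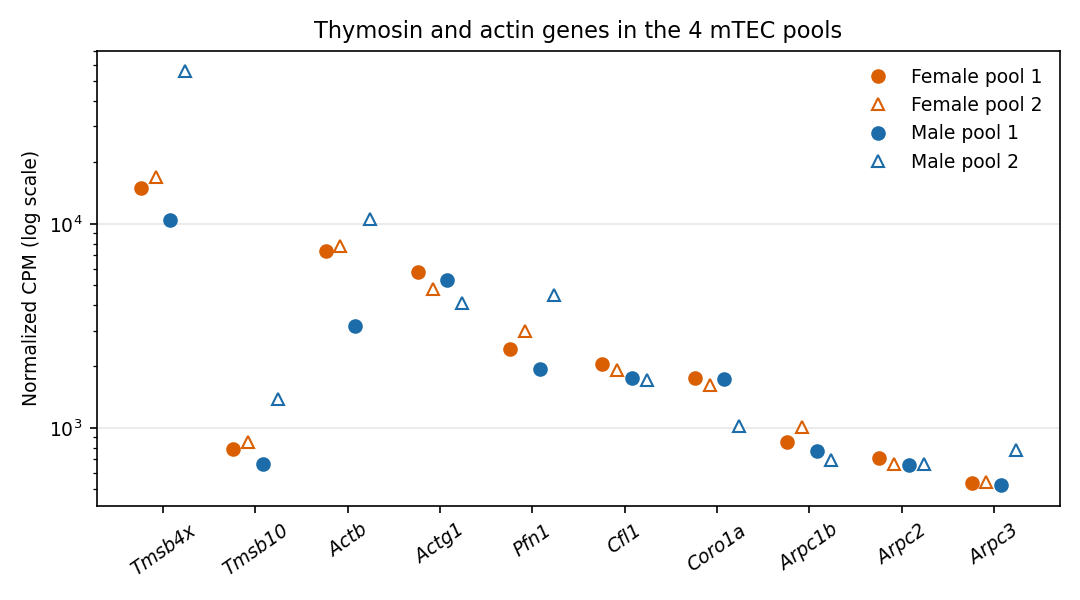
Normalized CPM (y axis, log scale) of each of the 10 genes (x axis) in the 4 pools, with 1 point per pool. With this TMM scaling male pool 2 is the highest for Tmsb4x, Tmsb10, Actb, Pfn1 and Arpc3 (by share of reads, male pool 1 is the highest for Arpc3) and the lowest for Actg1, Cfl1, Coro1a and Arpc1b.

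The coding sequences of the thymosin genes are shown to make clear how far their reads can be told apart. Both coding sequences are 135 bases long, and 95 bases (70.4%) are identical, with no identical run longer than 10 bases. Capitals mark the 40 positions at which they differ (GENCODE vM1 transcripts).
Tmsb4x: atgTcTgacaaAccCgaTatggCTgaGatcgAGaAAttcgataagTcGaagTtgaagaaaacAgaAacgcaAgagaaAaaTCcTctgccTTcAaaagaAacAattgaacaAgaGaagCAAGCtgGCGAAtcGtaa
Tmsb10: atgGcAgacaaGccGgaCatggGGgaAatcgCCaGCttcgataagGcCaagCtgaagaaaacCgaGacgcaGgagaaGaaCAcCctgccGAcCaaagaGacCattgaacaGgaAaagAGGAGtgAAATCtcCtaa
The reads were 50 bases long, and 0 of the 86 windows of 50 bases in the Tmsb4x coding sequence occur in that of Tmsb10.

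Tmsb4x lies on chromosome X (163645025 to 163647247, minus strand, 3 exons) and Tmsb10 on chromosome 6 (72907341 to 72908742, minus strand, 3 exons) of NCBIM37, the assembly also named mm9. They differed in what else in the genome matches them. For Tmsb4x, 0 of the 719 windows of 50 bases in the transcript had an exact copy outside the gene. For Tmsb10, 362 of 521 windows (69.5%) had such a copy, at 10 places. Reads with several alignments were set aside by the counting, so part of the reads of Tmsb10 could be missing from its count, and the size of such a loss was not tested.

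Actb and Actg1, which encode the beta and gamma actin of nonmuscle cells, went different ways. Actb was at 7386 and 7809 CPM in the female pools, 3151 CPM in male pool 1 and 10580 CPM in male pool 2. The male pools were thus the lowest and the highest of the 4, and their ratio was 3.36. Actg1 was at 5801 and 4813 CPM in the female pools and at 5313 and 4113 CPM in the male pools. Its highest and lowest pools differed by 1.41 times, and by 1.96 times when scaled by library size alone, against 2.21 for Actb. As a result, the count ratio of Actb to Actg1 was 1.27 (95% counting interval 1.25 to 1.3) and 1.62 in the female pools, 0.593 (0.584 to 0.602) in male pool 1 and 2.57 (2.52 to 2.63) in male pool 2, a range of 4.34 times. Actg1 had more reads than Actb only in male pool 1, while Actb led in the other 3 pools. Together the actins took 1.38% and 1.29% of reads in the female pools against 0.997% and 1.14% in the male pools. After TMM scaling their sum was 13190 and 12620 CPM in the female pools but 8464 CPM in male pool 1 and 14690 CPM in male pool 2, so male pool 2 turned from below the female pools to above them. Reads of Tmsb4x per read of both actins were 1.14 and 1.34 in the female pools, 1.24 in male pool 1 and 3.8 in male pool 2, so the male pool that stood apart was the exception here too.

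The actin coding sequences are far more alike than those of the thymosins, with 1000 of 1128 bases (88.7%) identical. The stretch shown, coding bases 860 to 979, holds their longest identical run, of 62 bases, and capitals mark the positions at which they differ.
Actb: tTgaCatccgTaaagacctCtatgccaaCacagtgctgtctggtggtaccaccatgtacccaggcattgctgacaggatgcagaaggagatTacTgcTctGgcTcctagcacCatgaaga
Actg1: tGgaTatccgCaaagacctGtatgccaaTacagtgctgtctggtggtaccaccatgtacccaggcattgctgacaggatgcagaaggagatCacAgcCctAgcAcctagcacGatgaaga
Over the whole coding sequence, 30 of 1079 windows of 50 bases were shared by Actb and Actg1, so few reads could fall equally well on both.

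The larger overlap was with other places in the genome. Actg1 (chromosome 11, 120207004 to 120209856, minus strand, 6 exons) had an exact copy elsewhere for 1840 of its 1903 windows (96.7%), of which 1700 lay at a single place on chromosome 4. Actb (chromosome 5, 143664794 to 143668433, minus strand, 6 exons) had copies of 288 of 1871 windows (15.4%). The level of Actg1 therefore rests on a count from which most of its reads could have been set aside as not unique, and its ratio to Actb is a ratio of counts, not of RNA. Reads that did not align uniquely made up 32.1% and 28.3% of all rows of the table in the female pools against 27.3% and 33.2% in the male pools. Their share was thus lowest in male pool 1, where the ratio of Actb to Actg1 was lowest, and highest in male pool 2, where it was highest, while the female pools had the opposite order. Whether the ratio depends on them was not tested.

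**Figure D3:**
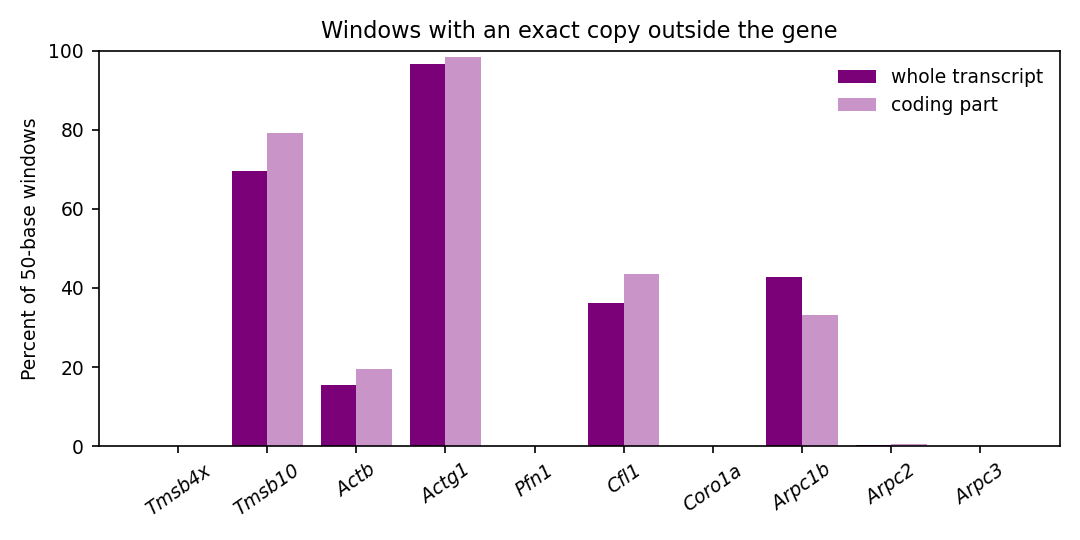
Percent of 50-base windows (y axis) of each of the 10 genes (x axis) with an exact copy elsewhere in NCBIM37, for the whole transcript and for its coding part. Actg1 reaches 96.7% and Tmsb10 69.5%, while Tmsb4x, Pfn1, Coro1a and Arpc3 are at 0.

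Pfn1, which binds actin monomers and delivers them to filament ends, was at 2444 and 2995 CPM in the female pools and at 1933 and 4498 CPM in the male pools. As for the thymosins, the male values enclosed the female ones. Cfl1, which severs filaments, was at 2051 and 1930 CPM in the female pools and at 1764 and 1718 CPM in the male pools, with both male pools below both female pools. By share of reads the sexes overlapped, at 0.215% and 0.197% in the female pools against 0.208% and 0.133% in male pools 1 and 2. The ratio of its highest to its lowest pool was 1.19 by TMM and 1.61 by library size alone. The count ratio of Pfn1 to Cfl1 was 1.19 and 1.55 in the female pools, 1.1 in male pool 1 and 2.62 in male pool 2. Pfn1 (chromosome 11, 70465352 to 70468146) had no window copied elsewhere, and Cfl1 (chromosome 19, 5490485 to 5494029) had 398 of 1099 (36.2%), 200 of which also occur in the coding transcripts of the predicted gene Gm6180.

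Coro1a was at 1751 and 1616 CPM in the female pools, 1742 CPM in male pool 1 and 1026 CPM in male pool 2. Only male pool 2 stood apart, at 0.61 times the female mean. The blood cell marker Laptm5 showed the same order of the male pools, at 1590 and 991 CPM against 1780 and 1330 CPM in the female pools, and Ptprc, which encodes CD45, had 1030 and 363 counts in the female pools against 2546 and 569 in the male pools, so no blood cell marker was at 0. The summed level of the 5 blood cell markers, Coro1a among them, went the other way, at 8009, 10630, 6995 and 22350 CPM in female pools 1 and 2 and male pools 1 and 2, and most of this sum was Cd52, whose transcript has only 514 bases. The part of blood cells in the level of Coro1a was not tested.

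The Arp2/3 subunits took 0.22% and 0.226% of reads in the female pools, 0.23% in male pool 1 and 0.167% in male pool 2. Arpc2, part of the complex's core, was at 712.7 and 665.1 CPM in the female pools and at 657.7 and 668.0 CPM in the male pools. This range of 1.08 times was the smallest of the 10 genes with TMM scaling, but was 1.49 times by library size alone, when Arpc3 had the smallest, at 1.11. Arpc1b was at 853.3 and 1004 CPM in the female pools and at 767.9 and 698.8 CPM in the male pools, with no overlap between the sexes, although by share of reads male pool 1, at 0.0905%, was above female pool 1, at 0.0895%. Arpc3 was at 536.3, 542.9 and 522.4 CPM in the female pools and male pool 1, and at 782.0 CPM in male pool 2. By counts, Arpc1b exceeded Arpc3 1.59 and 1.85 times in the female pools and 1.47 times in male pool 1, but was at 0.894 times Arpc3 in male pool 2, and the ratio of Arpc2 to Arpc3 was below 1 in that pool too, at 0.854 against 1.23 to 1.33 in the other pools. The genes lie on chromosome 5 (Arpc1b, 145875084 to 145891574, and Arpc3, 122841887 to 122856188) and chromosome 1 (Arpc2, 74283071 to 74314783). Windows copied elsewhere made up 42.8% of the Arpc1b transcript, 0.2% of Arpc2 and 0% of Arpc3.

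The spread of each gene over the 4 pools was set beside that of all 1581 genes with a mean of at least 100 CPM, whose median standard deviation was 0.34 on the log2 scale. The thymosin Tmsb4x, at 1.05, lay at percentile 94.5 of these genes and Actb, at 0.75, at percentile 84.2. Pfn1, Tmsb10 and Coro1a lay at percentiles 71.4, 65.1 and 54.8. Cfl1, at 0.12, and Arpc2, at 0.05, lay at percentiles 6.6 and 0.6. This order depended on the scaling. Scaled by library size alone, Tmsb4x remained high, at percentile 91.0, and Actb lay at 69.1, but Coro1a lay at 76.8, Cfl1 at 30.0, Arpc2 at 20.1 and Tmsb10 at 11.3, and Arpc3 was the steadiest of the 10 genes, at 0.8. Actb is widely used as a reference gene for expression. Of 12 reference genes scaled by TMM, the ratio of the highest to the lowest pool was over that of Actb, 3.36, only for the keratin gene Krt5, at 4.96 and low levels of 2.72 to 13.5 CPM. It was 1.14 for Rplp0, 1.38 for Gapdh and 2.39 for B2m.

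The sexes were compared in a quasi-likelihood fit in edgeR over all 10865 genes that passed the filter on low counts, which all 10 genes did. None of the 10 genes passed an adjusted p of 0.05, with 0 of 10 also at an unadjusted p of 0.05 and with DESeq2. Over all genes the same test called 0 (0%), with 48 at an unadjusted p of 0.05, while DESeq2 called 3. The log2 fold change of males over females was 1.06 ± 0.84 (SE) for Tmsb4x, the largest of the 10, with means of 33200 ± 32100 CPM (SD, n = 2) in males and 16000 ± 1320 in females. It was 0.31 ± 0.51 for Tmsb10, -0.15 ± 0.68 for Actb, -0.17 ± 0.5 for Actg1 and 0.24 ± 0.57 for Pfn1. The values of Cfl1, Coro1a, Arpc1b, Arpc2 and Arpc3 were -0.19 ± 0.45, -0.28 ± 0.49, -0.34 ± 0.42, -0.06 ± 0.41 and 0.27 ± 0.43. Every adjusted p was 1, and only the difference of Tmsb4x exceeded its standard error. In 2 genes, Cfl1 and Arpc1b, both male pools lay below both female pools, and in 0 of the 10 above. Of all genes tested, 11.7% showed the first pattern and 9.47% the second. Scaled by library size alone, 0 of the 10 genes had both male pools below (8.94% of all genes) and 1, Arpc3, had both above (6.16%), so neither count held under both scalings.

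For 7 of the 10 genes the sign of the difference rested on a single pool. Without male pool 2, Tmsb4x turned from 1.06 to -0.59, Tmsb10 to -0.3, Pfn1 to -0.48, Arpc3 to -0.03, Actg1 to 0.01 and Coro1a to 0.06. Without male pool 1, Actb turned to 0.48 and Tmsb4x reached 1.81, with an adjusted p of 0.0318 in edgeR, against 0.999 to 1 for Tmsb4x in every other fit run. That fit has a lone male pool, which is assumed to vary as the female pools do, and it called 631 of all 10865 genes (5.81%), while 52 were called without male pool 2. Cfl1 and Arpc1b kept their sign without any pool, at -0.21 to -0.15 and -0.45 to -0.19.

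**Figure D4:**
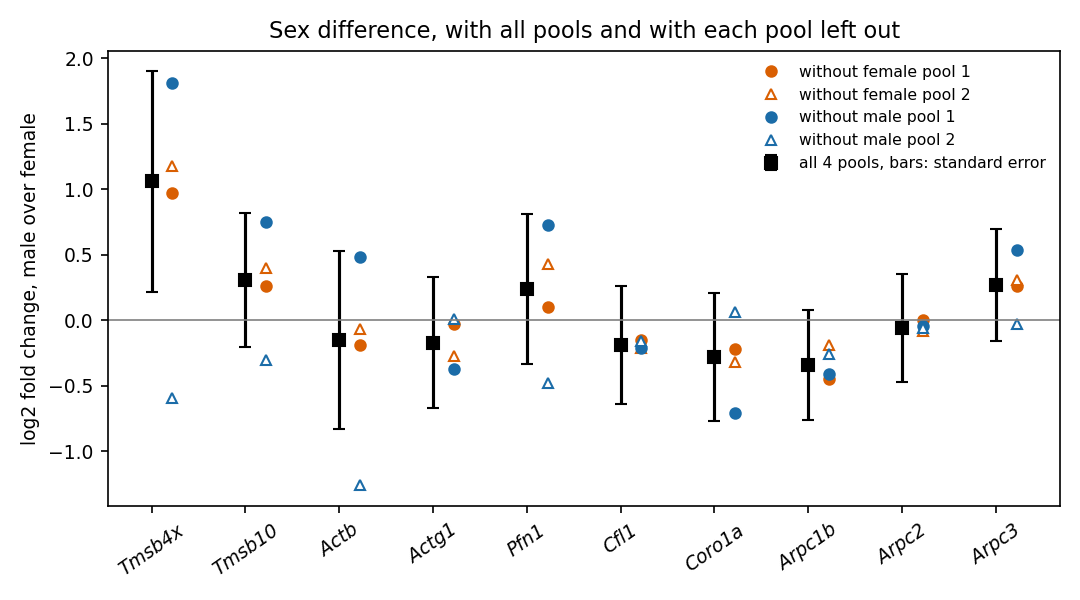
Log2 fold change of males over females (y axis) of the 10 genes (x axis), with black squares and bars for all 4 pools and their standard error, and coloured points for the fits that leave out 1 pool. For Tmsb4x the points span -0.59 (male pool 2 left out) to 1.81 (male pool 1 left out), and for Cfl1 from -0.21 to -0.15.

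Pools of the same sex were then compared. Between the female pools, the log2 difference of pool 2 from pool 1 was -0.27 to 0.29 for all 10 genes. Between the male pools it was 2.41 for Tmsb4x, 1.75 for Actb, 1.22 for Pfn1, 1.06 for Tmsb10 and 0.58 for Arpc3. It was 0.02 for Arpc2, -0.04 for Cfl1, -0.14 for Arpc1b, -0.37 for Actg1 and -0.76 for Coro1a. With 1 pool on each side these differences have no test. Scaled by library size alone, the male difference of Arpc2 was -0.58 and that of Arpc3 was -0.02, both with the sign turned. On that scale the others were 1.81 for Tmsb4x, 1.15 for Actb, 0.62 for Pfn1 and 0.46 for Tmsb10, and -0.64 for Cfl1, -0.74 for Arpc1b, -0.97 for Actg1 and -1.37 for Coro1a, so every value was lower than with TMM. Of the 1581 genes of at least 100 CPM, 70 (4.43%) had a larger difference between the male pools than Tmsb4x.

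Transcript length moved with these differences. The 4 genes with transcripts under 1000 bases, Tmsb10 (570), Tmsb4x (768), Pfn1 (861) and Arpc3 (899), differed by 0.58 to 2.41 between the male pools, with a median of 1.14. The 6 longer ones, from Cfl1 (1148) to Arpc1b (3105), differed by -0.76 to 1.75, with a median of -0.09. Actb, with 1920 bases, was the only longer gene above 0.02, and Actg1, with 1952 bases, was at -0.37. Among all 1526 genes of at least 100 CPM with a length, the median male difference was 1.56 for the 296 under 1000 bases and 0.04, -0.26 and -0.23 for those of 1000 to 2000, 2000 to 3000 and 3000 bases or more. The median female differences of the same groups were 0.44, 0.04, -0.09 and -0.22, with the shortest group again the highest. Tmsb4x thus lay above the median of short genes between the male pools, and Tmsb10, Pfn1 and Arpc3 below it. The Spearman correlation of length with the male difference was -0.61 over the 10 genes and -0.54 over the 1526 genes, each a description across genes that share their libraries. The part of transcript length in the levels of these genes was not tested.

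**Figure D5:**
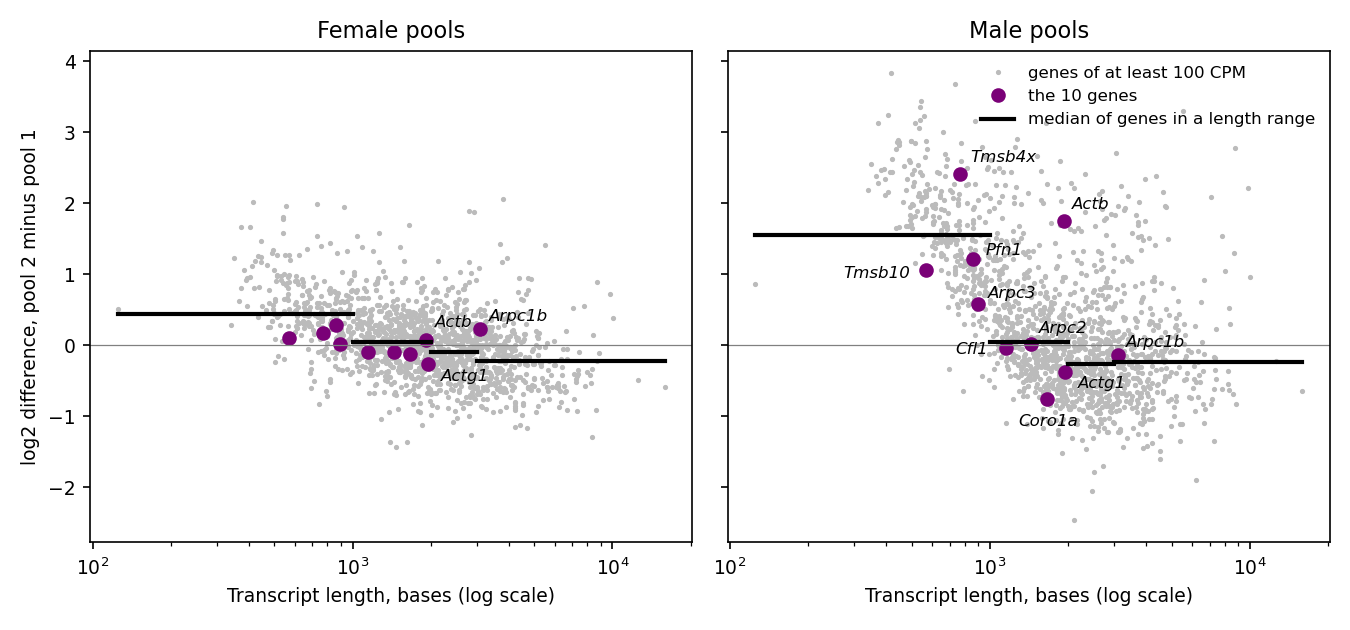
Log2 difference of pool 2 from pool 1 (y axis) against transcript length in bases (x axis, log scale) for the female pools on the left and the male pools on the right. Grey points are genes of at least 100 CPM, purple points the 10 genes, and black lines the medians of 4 length ranges, of which the shortest is at 1.56 in the male and 0.44 in the female pools.

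The other genes of the actin cytoskeleton were counted from lists written down with the design. Of 137 such genes, 132 were in the table and 100 were tested, and 0 passed the adjusted threshold in either direction in edgeR's test, as in DESeq2's, with 1 at an unadjusted p of 0.05. That gene, Ssh1, which encodes a phosphatase that activates cofilin and is named after its values were seen, was at 20.4 and 18.3 CPM in the female pools against 12.2 and 7.32 CPM in the male pools. The log2 fold changes of these 100 genes had a median of -0.14, and those of the 10 genes one of -0.1, beside 0.03 over all genes tested. Of the 100, 27 lay above 0 and 73 below, beside 5781 above and 5084 below over all genes tested. These genes share their pools, so this split has no test. Both male pools were below both female pools in 24, beside the 11.7% of all genes. By library size alone the count was 16, beside 8.94%. The exceptions in the other direction, picked after seeing their values, were Diap2 and Limk1, with both male pools above, beside 9.47% of all genes. By library size alone 3 genes of the list had both male pools above, beside 6.16%. Only 2 of 98 of these genes with a known length had transcripts under 1000 bases, with a median of 3192 bases, against 790 of 10089 and a median of 2770 bases over all genes tested, and the part of length in the lower median was not tested. Without female pool 1 the median was -0.07. Without male pool 1, in the fit with a lone male pool that called 5.81% of all genes, a single gene of the list was called, Wipf2, also picked after seeing its values, which encodes a partner of the Arp2/3 activators, at 7.07, 5.94, 5.38 and 21.2 CPM in female pools 1 and 2 and male pools 1 and 2.

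The remaining monomer-binding genes were at low levels. Twf2, encoding a twinfilin, was at 91.3 to 144 CPM and Cap1 at 36.2 to 51.5 CPM, and of the 11 genes only 5 were tested, with a median of 0.11. The other actins were also low, with the skeletal muscle actin Acta1 at 6.81 to 13.5 CPM and the smooth muscle actin Acta2 at 1.36 to 7.32 CPM, and Actbl2 at 0 counts in all pools. Of 7 other Arp2/3 genes 6 were tested, with a median log2 fold change of -0.07. Actr3, an actin-related protein of the complex, was at 714 and 522 CPM in the female pools against 654 and 451 CPM in the male pools. Arpc5, at 340 to 374 CPM, and Arpc4, at 248 to 286 CPM, varied little between pools. Of the Arp2/3 activators, 13 of 16 were tested, with a median of -0.03. Brk1, a small subunit of the WAVE complex, was at 214 and 260 CPM in the female pools against 180 and 380 CPM in the male pools, the order of pools seen for Tmsb4x.

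Of the cofilin family and its regulators, 9 of 10 were tested, with a median of -0.05. Wdr1, which helps cofilin, was at 397, 413 and 413 CPM in the female pools and male pool 1 and at 285 CPM in male pool 2. The actin-binding gene Cotl1 was higher in both second pools, at 194 and 204 CPM against 124 and 105 CPM. Coronins other than Coro1a had a median of -0.25 over 4 tested genes, with Coro1b at 321 to 454 CPM. Capping and severing genes, 12 of 13 tested, had a median of -0.18, with Capzb, which caps filament ends, at 640 to 786 CPM and the blood cell and macrophage gene Capg at 329 to 582 CPM. Bundling and crosslinking genes, 10 of 12 tested, had a median of -0.23. Lcp1, the plastin of blood cells, was at 946 to 1320 CPM, and Marcksl1 was at 677 and 670 CPM in the female pools and at 445 and 391 CPM in the male pools. The log2 fold change of Marcksl1 was -0.69 ± 0.4 (SE), with an adjusted p of 1 in edgeR's test, as for every gene named from these lists.

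Myosin II and tropomyosin genes, 8 of 11 tested, had a median of -0.07. Myl6, a myosin light chain with a transcript of 665 bases, was at 1250 and 1770 CPM in the female pools and at 1080 and 4060 CPM in the male pools. Its pools followed the order of Tmsb4x, and its log2 difference between the male pools was 1.9, beside 2.41 for Tmsb4x. Tpm3, a tropomyosin of 2233 bases, was at 569 to 739 CPM and lowest in male pool 2. Membrane linkers, 6 of 7 tested, had a median of -0.19, and 4 of the 6, Ezr, Msn, Rdx and Vcl, were lower in the second pool of each sex. Ezr, ezrin, was at 452 and 396 CPM in the first pools and 269 and 176 CPM in the second. Msn, moesin, was at 538 and 523 against 355 and 243 CPM. Formins and Ena/VASP genes (9 tested of 13 in the table) had a median of -0.12, with Vasp, which promotes filament growth, at 77.4 to 108 CPM.

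The actin genes typical of blood cells, 11 of 11 tested, had a median of -0.24, and those typical of epithelium, 4 of 10 tested, one of -0.36. Their summed levels differed widely. The blood cell genes summed to 4562 and 4226 CPM in the female pools and to 4353 and 3474 CPM in the male pools, and the epithelial genes to 476.2, 295.4, 412.4 and 204.8 CPM, nearly all of it from Ezr. Both sums were lowest in male pool 2. The thymic epithelial markers had another order, at 375.9, 650.2, 418.3 and 618.0 CPM. The sum of epithelial actin genes, in effect the level of Ezr, did not follow them. Which cells the RNA of Ezr came from was not tested. The gene Actn1, an actinin of epithelial and other adherent cells, was at 11.1 to 20.8 CPM.

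Actin genes are themselves under the control of actin, since free monomers hold back the coactivators of serum response factor, which binds the CArG box. Srf was at 35.1 and 45.0 CPM in the female pools against 33.9 and 27.3 CPM in the male pools, and its coactivator Mkl1 was at 80.9 to 102 CPM, and the 3 tested genes of this kind had a median log2 fold change of -0.26. Among the 9 of the 10 genes with an entry in a RefSeq promoter table (GRCm38.p6), 1 (11.1%), Actg1, held a CArG box on either strand within 250 bases before its start, against 439 of 27025 genes (1.62%). Actb has no entry in that table and was not searched. The box of Actg1 began 90 bases before the start, and the 100 bases around it, at chr11:120348531-120348630 on the minus strand, are shown with the box in capitals.
Actg1: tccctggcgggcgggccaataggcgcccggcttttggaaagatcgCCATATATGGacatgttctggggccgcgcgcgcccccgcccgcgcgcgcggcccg
This match is of letters only, and no binding was measured.

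The profile of the pools that was nearest to the mean of the 10 genes was sought among other genes of at least 100 CPM, by the Euclidean distance of centred log2 levels over the 4 pools. The mean profile, with TMM scaling, stood at -0.3 in male pool 1 and 0.27 in male pool 2, with the female pools within 0.03 of 0. It averages genes that went opposite ways between the male pools, from 2.41 for Tmsb4x to -0.76 for Coro1a. By library size alone these differences were 1.81 and -1.37, and lower than with TMM for every one of the 10 genes. The search was not repeated on that scale. The 5 nearest genes were Tbc1d4 (distance 0.0619), Ctsh (0.0705), Rpl13 (0.0981), Atp6v0b (0.117) and Sat1 (0.117). Ctsh, encoding a lysosomal cathepsin, was at 700, 688, 552 and 791 CPM in female pools 1 and 2 and male pools 1 and 2. With only 4 pools, and many genes that share the low male pool 1 and the high male pool 2, such likeness is a description. None of these 5 genes belongs to the actin lists.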

How the data were processed

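RNA from 2 female and 2 male mTEC pools had been amplified with the SMARTer Ultra Low kit v3 and sequenced by the study. The authors deposited raw read counts per gene, made with Trimmomatic, TopHat2 (mm9) and HTSeq-count. Versions, gene annotation and strand setting are not given in the sources used here. The 5 rows that name no gene (66.9% to 70.2% of a pool's counts) were left out of library sizes and tests. The depth on genes was 1976272 to 7103627 reads per pool. No pair of pools was within sampling noise (lowest chi-square 11 per degree of freedom). Pools are separate samples by their labels, and p-values measure the spread between pools only.

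Counts were fitted with edgeR 4.0.16 in R 4.3.3 (quasi-likelihood test, TMM, filterByExpr with a minimum count of 10, prior count 0.125, Benjamini-Hochberg at 0.05, two-sided, sex as the only term), tested on simulated data. Standard errors are the log2 fold change over the square root of F. Alternatives included DESeq2 1.42.0. Other steps used Python 3.11.15, pandas 2.3.3 and matplotlib 3.10.9. Transcript lengths and positions came from the lowest-numbered coding transcript in GENCODE vM1 on NCBIM37, and 96.5% of genes of at least 100 CPM had one. Windows of 50 bases were searched on both strands of the genome. The genes named were taken from the 10 genes, the 3 most abundant tested genes of each list and the 5 nearest in profile. Ptprc, Ccl21a, Pax5, Actbl2, Rdx, Vcl, Krt5, Rplp0, Gapdh and the genes so marked in the text were picked after seeing their values. The 10 genes and all lists were chosen with earlier results of these data known. The result of 1 list of actin genes is not reported here.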

Additional observations from a re-analysis of the deposited data

How the results depend on the processing

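Of 130 alternative values of the log2 fold changes of the 10 genes, 122 kept their direction and their side of the threshold, 7 reversed and 1 gained a call. All 8 changes came from leaving out a male pool. The ranges over the 4 fits without a pool were -0.59 to 1.81 for Tmsb4x, -0.3 to 0.75 for Tmsb10, -1.26 to 0.48 for Actb, -0.37 to 0.01 for Actg1, -0.48 to 0.73 for Pfn1, -0.71 to 0.06 for Coro1a and -0.03 to 0.54 for Arpc3. Of the 10 genes, 0 to 1 were called, other actin genes called 0 to 1, and all genes called 0 to 631 in these fits. Scaling by library size only gave 5 calls over all genes, no filter on low counts 26, DESeq2 3 and edgeR's exact test 8, and none of these called any of the 10 genes. With library size only, the male pool difference was -0.58 for Arpc2 and -0.02 for Arpc3, and the median of other actin genes was -0.22. That median was -0.18 to -0.07 without a pool. The mean summed share of 4.35% became 1.36% over all rows of the table, whose denominator holds the reads not assigned to a gene. The causes of the other changes were not tested.

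The pools share only a number across the sexes, with a correlation of 0.52 over genes between the female and the male difference of pool 2 from pool 1. With the pool number as a replicate block, 17 genes and 0 of the 10 genes were called, and Tmsb4x was at 0.6 and Actb at -0.4. Scaling by library size only moved the median of all genes by -0.07. Each of the 10 genes had 1097 reads or more in every pool. The spread over pools and the overlap of the sexes under library size only were added after seeing the data.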
